A study of Mus musculus with 8 samples.

Results

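The 10 genes described here are the epidermal kallikreins Klk5, Klk6, Klk7, Klk8, Klk10, Klk11, Klk12, Klk13 and Klk14 and the inhibitor gene Spink5. They were chosen by name as the proteases of epidermal shedding and their inhibitor, out of 23146 genes with a name in the deposited counts. All 10 had a row in the counts, and 9 had enough reads to be tested. Klk14 was the exception, with 3 reads over all 8 libraries.

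Tissue kallikreins are secreted serine proteases made as inactive precursors. In the granular layer, where keratinocytes finish their differentiation, they are released into the space between cells, where they activate one another and cut the corneodesmosomes, the junctions that hold the cornified layer together. Spink5 encodes LEKTI, a protein of many inhibitor domains that blocks several of these proteases, and people without it have Netherton syndrome, with excess protease activity and detachment of the cornified layer.

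Messenger RNA levels were read from RNA sequencing of the skin epidermis of mouse embryos in which Nir, also called Noc2l, had been deleted in the epidermis. Noc2l encodes a nuclear protein that inhibits histone acetyltransferases. There were 4 groups of 2 libraries each. Control embryos carried the floxed Nir alleles. Knockout embryos carried the floxed alleles and Krt14-Cre, a recombinase transgene driven by a promoter of basal keratinocytes. Cells in the preparation that do not descend from basal keratinocytes were not its target. Each genotype was sampled at the embryonic days E15.5 and E17.5, late in gestation. The epidermis had been separated from the dermis before RNA extraction. The labels number the replicates 1 and 2 but do not say whether they were separate embryos, and p-values therefore reflect how far these libraries differ, which may be technical.

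The libraries held 25226357 to 28895657 counts on the 1 transcript kept for each named gene, out of 35720383 to 42494775 over all transcripts. Levels are given in CPM, a gene's counts scaled to a common library size. For Noc2l itself, the E15.5 controls had 107 and 97.4 CPM, the E15.5 knockouts 95.6 and 91.6, the E17.5 controls 106 and 121 and the E17.5 knockouts 85.4 and 86.9. It was lower in every knockout library than in either control of its stage, by 0.12 ± 0.10 (SE) on the log2 scale at E15.5 (log2 fold change -0.12, edgeR adjusted p = 0.335) and by 0.39 ± 0.10 at E17.5 (log2 fold change -0.39, edgeR adjusted p = 0.00621). Which exons were deleted is not stated in the labels, and counts over a whole transcript can include reads from exons left in place. Markers of other cells moved with genotype. Of 14 dermal fibroblast genes, 14 were higher in the knockout at E15.5 and 13 at E17.5, and their summed level was 32992 to 34828 CPM in E15.5 controls, 81699 to 100697 in E15.5 knockouts, 28466 to 32764 in E17.5 controls and 103693 to 108864 in E17.5 knockouts. All 14 were detected, and over all genes tested 23.2% rose at E15.5 and 26.7% at E17.5. The summed level of 12 basal keratinocyte genes was 7573 to 8046 CPM in E15.5 controls, 2276 to 2316 in E15.5 knockouts, 8114 to 8167 in E17.5 controls and 1487 to 1516 in E17.5 knockouts. The fibroblast levels show that even the control libraries also held RNA typical of cells outside the epidermis. The fibroblast sum was above the basal sum in controls, but sums over different genes do not compare amounts of cells. In bulk RNA, fewer cells of a type and less RNA per cell cannot be told apart. The part of these shifts in the results on kallikreins was not tested.

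The 9 kallikrein genes lie side by side on the plus strand of mouse chromosome 7 (GRCm38, GENCODE M21 annotation), in the order Klk14, Klk13, Klk12, Klk11, Klk10, Klk9, Klk8, Klk7, Klk6, Klk5, with Klk9 as the only protein-coding gene among them that is not one of the 10. The block runs from the start of Klk14 at chr7:43690418-43695536 to the end of Klk5 at chr7:43841971-43851181. Spink5 is on another chromosome. To show what lies upstream of genes that moved in opposite directions, the bases before the start of Klk13 (chr7:43712317-43712566, plus strand), of Klk7 (chr7:43811044-43811293, plus strand) and of Klk6 (chr7:43824294-43824498, plus strand) follow, from RefSeq's promoter table of GRCm38.p6. All 3 are upstream of the first annotated exon, and the Klk6 stretch ends where an exon of the gene begins. Capitals mark CACCC or its reverse complement GGGTG, letters found in the boxes bound by Klf factors.
Klk13: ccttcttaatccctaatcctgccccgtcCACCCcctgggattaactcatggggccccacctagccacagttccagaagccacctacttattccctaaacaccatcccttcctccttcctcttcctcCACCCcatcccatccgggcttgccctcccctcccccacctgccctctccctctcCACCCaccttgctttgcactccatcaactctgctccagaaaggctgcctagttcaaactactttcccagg
Klk7: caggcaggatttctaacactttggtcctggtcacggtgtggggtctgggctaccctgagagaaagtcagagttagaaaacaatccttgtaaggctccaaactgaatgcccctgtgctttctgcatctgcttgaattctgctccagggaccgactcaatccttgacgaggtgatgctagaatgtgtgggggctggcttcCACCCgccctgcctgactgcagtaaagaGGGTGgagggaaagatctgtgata
Klk6: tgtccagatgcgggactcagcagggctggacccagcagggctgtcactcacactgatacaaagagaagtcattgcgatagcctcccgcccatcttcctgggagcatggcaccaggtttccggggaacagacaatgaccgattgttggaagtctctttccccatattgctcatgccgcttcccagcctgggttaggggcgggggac
The windows of Klk13 and Klk7, whose levels fell in the knockout, hold 3 and 2 matches. The Klk6 bases shown hold none, but the full 250-base window before RefSeq's first start site holds 1, in bases of an annotated exon that are not shown, and the window of its second start site holds 0. Klk8, which fell, had 0 in its window, and Klk10 and Klk12, which were not called, had 2 each.

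Over the 11 start sites that RefSeq's table gives for the 9 kallikrein genes, 8 of the 250-base windows before the start held CACCC on either strand, against 52% of 32817 windows of the same length before all genes in the table. None of the 11 held the AP-1 letters TGANTCA (6.75% of all windows), the Grainyhead letters AACCNGTT (1.78%) or the TATA letters TATAAA (12.4%), each searched on both strands. With none of the other motifs present, no CACCC match overlapped another motif. These counts describe letters in a window only.

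**Figure D1:**
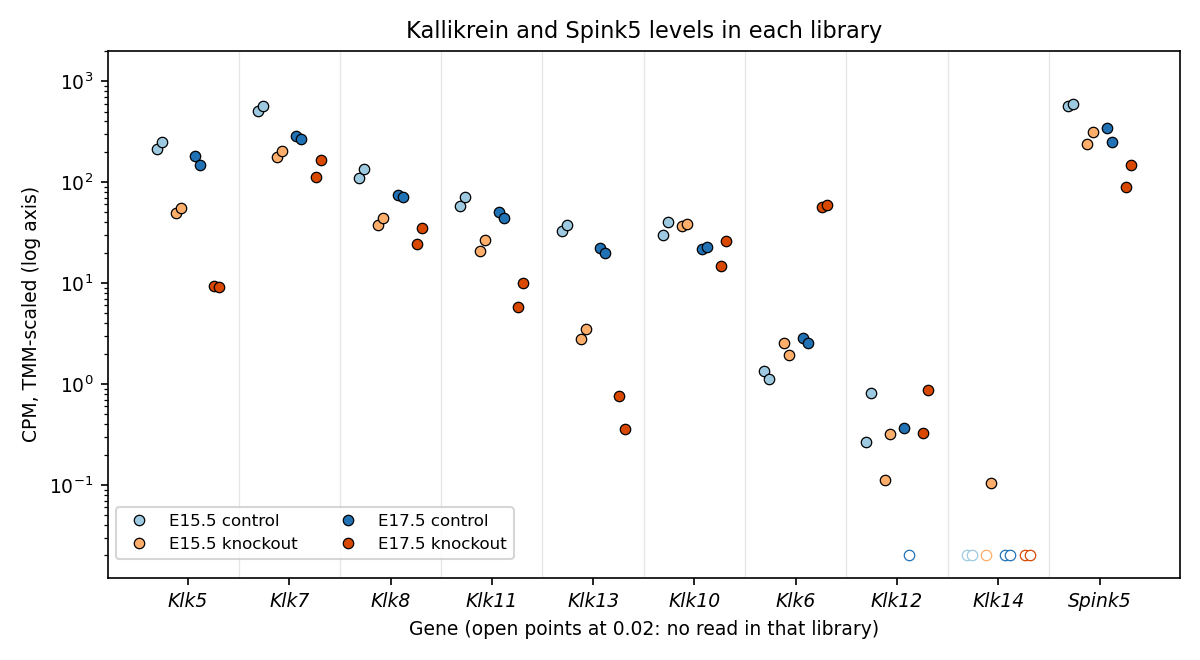
Level of each gene in each of the 8 libraries, in TMM-scaled CPM, on a log axis. Each point is 1 library, coloured by stage and genotype, and open points at the bottom had no read. Klk5, Klk7, Klk8, Klk11, Klk13 and Spink5 were lower in both knockout libraries than in both controls at each stage, while Klk6 stood at 57.0 and 58.8 CPM in the E17.5 knockout libraries and at 2.83 CPM or less in the other 6.

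Klk5 and Klk7 are the trypsin-like and chymotrypsin-like proteases best known for cutting corneodesmosomes, and Klk5 can activate the precursor of Klk7. Per kilobase of transcript they were the most abundant members in control libraries, and both were lower in the knockout. Klk5 had 213 and 249 CPM in the E15.5 controls, 48.9 and 55.1 in the E15.5 knockouts, 181 and 149 in the E17.5 controls and 9.31 and 9.13 in the E17.5 knockouts. No knockout library reached the level of a control. The log2 fold change in Klk5 was -2.15 ± 0.12 (SE) at E15.5 (edgeR's quasi-likelihood test over 16342 genes with Benjamini-Hochberg adjustment, adjusted p = 1.76e-07) and -4.16 ± 0.14 at E17.5 (adjusted p = 2.70e-09). That is 4.44-fold and 17.9-fold lower. The effect at E17.5 exceeded that at E15.5 by a log2 difference of -2.01 ± 0.18 (edgeR adjusted p = 0.000148 for the interaction of stage and genotype).

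Klk7 fell at both stages as well, but less than Klk5. It stood at 506 and 561 CPM in the E15.5 controls, 177 and 204 in the E15.5 knockouts, 288 and 266 in the E17.5 controls and 112 and 166 in the E17.5 knockouts. The groups did not overlap at either stage. The log2 fold change was -1.48 ± 0.17 at E15.5 (edgeR adjusted p = 2.63e-05) and -0.996 ± 0.16 at E17.5 (edgeR adjusted p = 0.000360), and the difference between the stages, 0.49 ± 0.23, missed the threshold (edgeR adjusted p = 0.301). The ratio of Klk5 to Klk7, in CPM per kilobase, was 0.908 ± 0.071 (SD, n = 2) in E17.5 controls and 0.106 ± 0.030 in E17.5 knockouts. At E15.5 it was 0.662 ± 0.024 in controls and 0.417 ± 0.007 in knockouts.

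Klk13, a trypsin-like protease, had the largest proportional decline of the 9 tested. Its 33.1 and 37.6 CPM in the E15.5 controls compared with 2.78 and 3.48 in the knockouts of that stage. At E17.5 the controls had 22.2 and 19.6 CPM and the knockouts 0.767 and 0.359. The knockout libraries of E17.5 rest on 31 reads together, against 1224 in the controls. The log2 fold change was -3.49 ± 0.20 at E15.5 (edgeR adjusted p = 1.85e-07) and -5.21 ± 0.26 at E17.5 (edgeR adjusted p = 2.77e-08), where only 181 of 16342 genes had a lower value. Without E17.5 knockout replicate 1 the E17.5 value was -5.87. The difference between the stages was -1.71 ± 0.35 (edgeR adjusted p = 0.0177). That call did not hold without E15.5 control replicate 1 (adjusted p = 0.0623), without E15.5 knockout replicate 2 (0.0673), without E17.5 knockout replicate 2 (0.0709) and with limma-voom (0.0697).

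Klk8, known as neuropsin in the brain and a trypsin-like protease of the granular layer in skin, and Klk11, another trypsin-like member, fell at both stages. Klk8 had 109 and 136 CPM in E15.5 controls, 37.7 and 44.0 in E15.5 knockouts, 74.2 and 71.2 in E17.5 controls and 24.4 and 34.8 in E17.5 knockouts. Its log2 fold changes, -1.58 ± 0.16 (edgeR adjusted p = 1.48e-05) and -1.30 ± 0.16 (edgeR adjusted p = 5.06e-05), at E15.5 and E17.5, differed by 0.29 ± 0.23 (edgeR adjusted p = 0.584). An annotated antisense transcript, 2310002F09Rik, overlaps exons of Klk8 and of Klk14, and the strand setting of the counting is not given, so reads from it cannot be told apart from theirs. Klk11 had 58.5 and 70.6 CPM in E15.5 controls, 20.9 and 26.5 in E15.5 knockouts, 50.2 and 43.7 in E17.5 controls and 5.81 and 10.03 in E17.5 knockouts. Its log2 fold change was -1.44 ± 0.21 at E15.5 (edgeR adjusted p = 0.000166) and -2.57 ± 0.22 at E17.5 (edgeR adjusted p = 2.60e-06). The difference of -1.12 ± 0.30 between the stages missed the threshold (edgeR adjusted p = 0.0599) but passed it in 6 of 16 alternatives, DESeq2 among them (adjusted p = 0.00411).

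Klk6 moved the other way. This trypsin-like protease is best known from the central nervous system and is also made in skin. It had 1.36 and 1.11 CPM in the E15.5 controls, 2.55 and 1.93 in the E15.5 knockouts, 2.83 and 2.57 in the E17.5 controls and 57.0 and 58.8 in the E17.5 knockouts. The last pair stands far above the other 6 libraries and rests on 3195 reads, against 158 in the E17.5 controls. The log2 fold change at E17.5 was 4.42 ± 0.17 (edgeR adjusted p = 4.50e-09), a 21.4-fold rise that put Klk6 at rank 63 of 16342 genes. At E15.5 the rise was 0.85 ± 0.22 on the log2 scale (edgeR adjusted p = 0.00715), from 65 reads in the controls to 124 in the knockouts. The E15.5 call did not hold without E15.5 control replicate 2 (adjusted p = 0.0591), without E15.5 knockout replicate 1 (0.0680), with limma-voom (0.0589) or with only the 2 groups in the fit (0.0723). The effect at E17.5 was larger than at E15.5 by 3.57 ± 0.28 on the log2 scale (edgeR adjusted p = 0.000115). The files list 4 RefSeq transcripts of Klk6 that share most exons, and each had between 1487 and 1560 reads in E17.5 knockout replicate 1 and between 1559 and 1635 in replicate 2.

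Klk10 and Klk12 did not pass the test in the knockout at either stage. Klk10 had 29.8 and 40.6 CPM in the E15.5 controls, 37.0 and 38.6 in the E15.5 knockouts, 22.0 and 22.9 in the E17.5 controls and 14.8 and 25.9 in the E17.5 knockouts. The groups overlapped at both stages, and the log2 fold changes were 0.10 ± 0.22 (edgeR adjusted p = 0.732) and -0.14 ± 0.22 (edgeR adjusted p = 0.614). Without E17.5 knockout replicate 2, which had the higher of the 2 levels, the E17.5 value was -0.62 and passed the test (adjusted p = 0.0206). Klk12 had between 0 and 24 reads per library, with overlapping groups and log2 fold changes of -1.29 ± 1.01 (edgeR adjusted p = 0.325) and 1.76 ± 1.02 (edgeR adjusted p = 0.169). Without E17.5 control replicate 1, the remaining control had 0 reads and the fitted value rose to 7.06 (adjusted p = 0.0215), a size set by the prior count of the fit. Klk14 had 3 reads in E15.5 knockout replicate 2 and 0 in each of the other 7 libraries. A count of 0 allows a level of up to about 0.115 CPM in the library with the widest limit, for counting error only, so a change in Klk14 was not detectable at this depth.

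Spink5, the inhibitor, fell with most of the proteases. It stood at 561 and 588 CPM in the E15.5 controls, 238 and 317 in the E15.5 knockouts, 340 and 250 in the E17.5 controls and 88.8 and 148 in the E17.5 knockouts. Every knockout library was below both controls of its stage. The log2 fold change was -1.05 ± 0.22 at E15.5 (edgeR adjusted p = 0.00262) and -1.32 ± 0.23 at E17.5 (edgeR adjusted p = 0.000484), which is 2.07-fold and 2.49-fold lower. The difference between the stages was -0.27 ± 0.31 (edgeR adjusted p = 0.736).

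Across the 9 members tested, 6 fell, 1 rose and 2 were not called at each stage. Klk5, Klk7, Klk8, Klk11, Klk13 and Spink5 fell at both stages and Klk6 rose at both. Calls were common in these libraries, so the counts say little by themselves. At E15.5, 45.5% of all genes tested passed in either direction (23.2% rose and 22.3% fell), and at E17.5, 53.5% did (26.7% rose and 26.7% fell). Scaling by library totals alone moved the E17.5 split from 4371 rising and 4364 falling genes to 3295 and 6284. The median log2 fold change of the 9 was -1.44 at E15.5 and -1.30 at E17.5, beside medians of -0.005 and -0.023 over all genes. For the difference between the stages, 3 of 9 members passed (Klk6 upward, Klk5 and Klk13 downward) where 4.35% of all genes did, 1.88% upward and 2.47% downward (308 and 403 genes, or 142 and 655 under library totals).

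**Figure D2:**
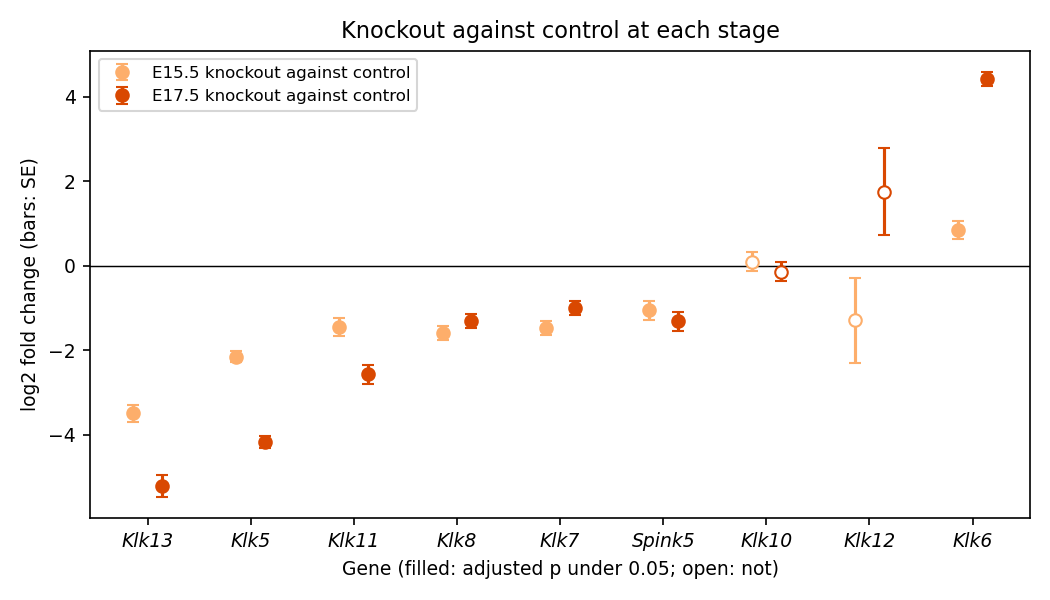
Log2 fold change of the knockout against control for the 9 members tested, with bars of 1 SE, at E15.5 (light) and E17.5 (dark). Filled points passed the edgeR test at an adjusted p of 0.05. Klk13, Klk5, Klk11, Klk8, Klk7 and Spink5 lie below 0 at both stages, Klk10 lies near 0, and Klk6 rises from 0.85 to 4.42.

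Because the members differ in length, their levels were set against one another per kilobase of transcript. In E15.5 controls the order was Klk7, Klk5, Spink5, Klk8, Klk11, Klk10, Klk13, Klk6, Klk12 and Klk14, and no neighbours in it overlapped between replicates. Klk7 stood at 267 and 296 CPM per kilobase, Klk5 at 172 and 201, and Spink5 at 117 and 123. The same order held in E17.5 controls, but there Klk7 (152 and 140) overlapped with Klk5 (146 and 120), Spink5 (71.0 and 52.3) with Klk8 (56.1 and 53.9), and Klk12 with Klk14. In E15.5 knockouts Klk7 (93.6 and 108) still led, followed by Spink5 (49.8 and 66.2), Klk5 (39.5 and 44.5), Klk8, Klk10 and Klk11, with Klk6 and Klk13 overlapping near the bottom. In E17.5 knockouts Klk7 (59.3 and 87.4) was followed by Klk6 (48.6 and 50.1), which stood below Klk13 in both control groups. Spink5, Klk8 and Klk10 came next and overlapped, neighbour with neighbour, as did Klk5 with Klk11 and Klk12 with Klk13.

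The summed level of the 9 kallikreins was 657 ± 69.5 CPM per kilobase (SD, n = 2) in E15.5 controls, 223 ± 20.9 in E15.5 knockouts, 401 ± 32.2 in E17.5 controls and 174 ± 34.7 in E17.5 knockouts. For Klk6, Klk5, Klk10, Klk13 and Klk7, the mean share of this sum differed between genotypes by more than replicates differed, at both stages. For Klk11 it did so at E17.5, with 8.93% ± 0.153 in controls and 3.40% ± 0.629 in knockouts. For Klk12 it also did so at E17.5, on few reads. Klk13 had 2.98% ± 0.047 in E15.5 controls, 0.773% ± 0.052 in E15.5 knockouts, 2.89% ± 0.015 in E17.5 controls and 0.191% ± 0.129 in E17.5 knockouts. Klk6 made up 0.191% and 0.135% of the sum in the E15.5 controls, 1.05% and 0.694% in the E15.5 knockouts, 0.570% and 0.580% in the E17.5 controls and 32.4% and 25.2% in the E17.5 knockouts. Klk5 made up 34.4% and 31.9% in E17.5 controls but 5.02% and 3.71% in E17.5 knockouts, and its share at E15.5 was 28.4% ± 0.118 in controls and 18.8% ± 0.186 in knockouts. Klk7 made up between 35.9% and 45.3% in every library, and Klk8 between 12.3% and 14.5%. The Klk7 share was 42.9% ± 1.39 in E15.5 controls and 45.1% ± 0.293 in E15.5 knockouts. At E17.5 it was 36.5% ± 0.880 in controls and 41.8% ± 3.10 in knockouts. Klk10, whose own level did not pass the test, had a share of 3.88% ± 0.437 in E15.5 controls and 12.4% ± 0.802 in E15.5 knockouts. Its mean level was 35.2 CPM in those controls and 37.8 in those knockouts, so its share was higher mainly because the sum was lower. The smallest p that an exact permutation test of such a share could give, with 2 libraries in each group, is 0.333, and none was run.

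**Figure D3:**
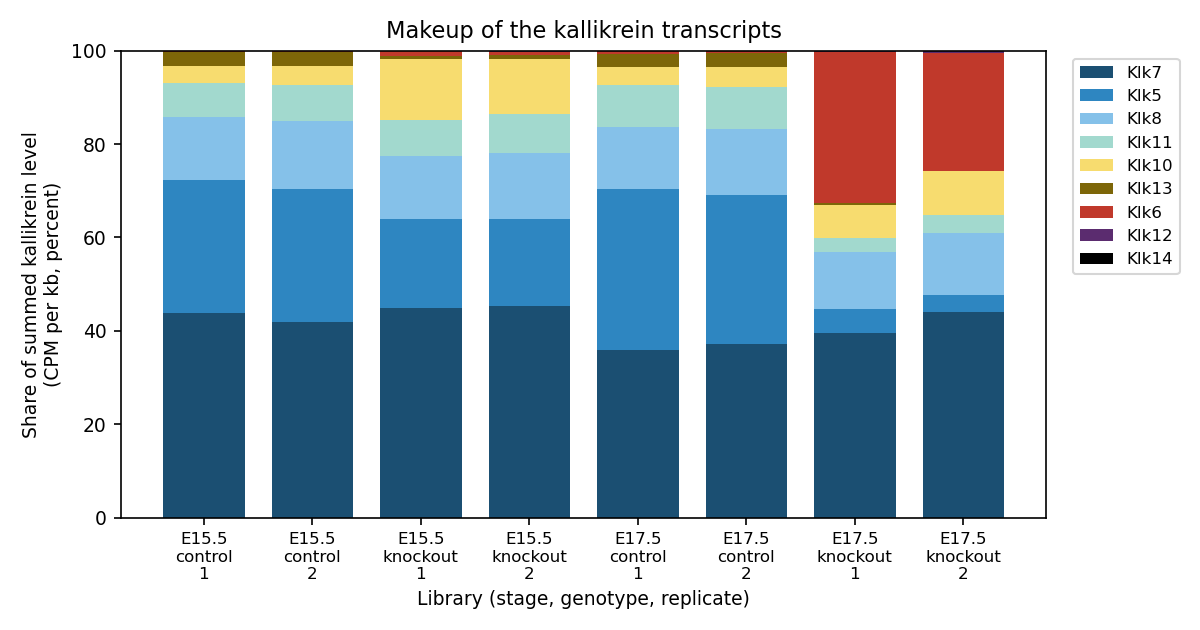
Share of each kallikrein in the summed level of the 9, in percent of CPM per kilobase, as 1 stacked bar per library. The Klk6 segment is 32.4% and 25.2% in the 2 E17.5 knockout bars and at most 1.05% in the other 6, and the Klk5 segment is smallest in the same 2 bars.

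Set against the inhibitor within each library, the proteases went in different directions. Klk5 stood at 1.55 ± 0.120 times Spink5 (SD, n = 2, CPM per kilobase) in E15.5 controls, 0.732 ± 0.086 in E15.5 knockouts, 2.18 ± 0.177 in E17.5 controls and 0.321 ± 0.118 in E17.5 knockouts. The ratio of Klk7 to Spink5 was 2.34 ± 0.095, 1.75 ± 0.176, 2.41 ± 0.385 and 3.01 ± 0.260 in the same order. Klk5 was thus below Spink5 in both knockout groups, and Klk7 above it in all 4 groups. Klk6 was at 0.038 ± 0.0056 times Spink5 in E17.5 controls and at 2.12 ± 0.705 times in E17.5 knockouts. The 9 kallikreins summed were 5.47 ± 0.399 times Spink5 in E15.5 controls, 3.89 ± 0.416 in E15.5 knockouts, 6.60 ± 0.894 in E17.5 controls and 7.25 ± 1.16 in E17.5 knockouts, and the 2 groups of E17.5 overlapped. These ratios compare transcripts, not protein or protease activity.

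**Figure D4:**
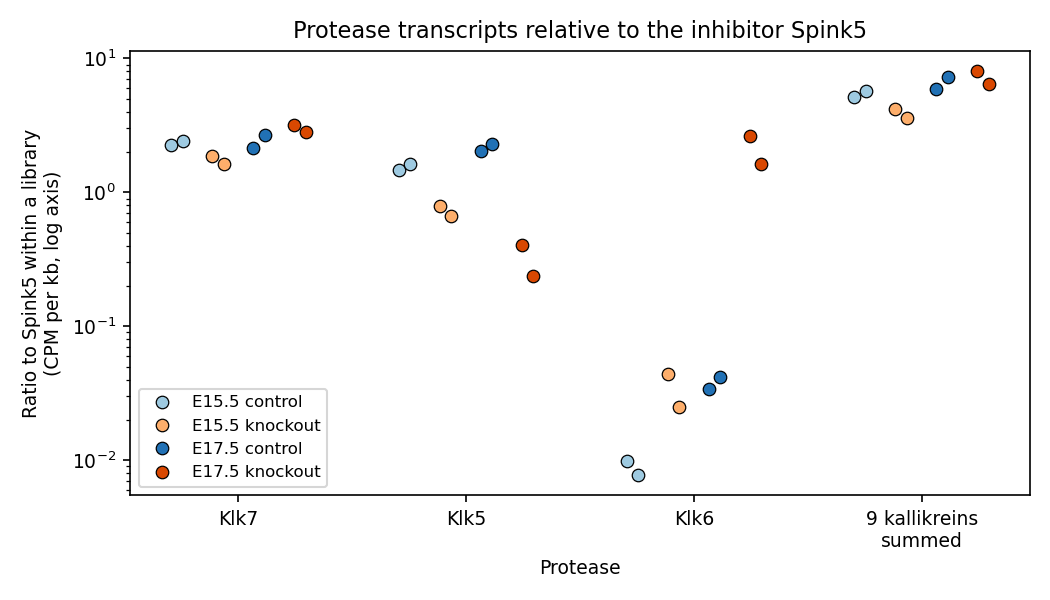
Ratio of Klk7, Klk5, Klk6 and the 9 kallikreins summed to Spink5 within each library, in CPM per kilobase, on a log axis. Each point is 1 library. Klk5 falls below 1 in all 4 knockout libraries, while Klk6 rises above 1 only in the 2 E17.5 knockout libraries, among the 8 sequenced.

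Control libraries of E17.5 had lower levels of most members than those of E15.5. The comparison had been planned to show a normal rise over the stages, and most members went the other way. From E15.5 to E17.5, 5 of 9 fell and 1 rose in controls, where 10.9% of all genes passed (3.15% upward and 7.7% downward, which is 515 and 1259 genes, or 1486 and 762 under library totals). Klk7 fell by 0.94 ± 0.16 on the log2 scale (edgeR adjusted p = 0.00348), Spink5 by 0.96 ± 0.22 (edgeR adjusted p = 0.0177), Klk8 by 0.75 ± 0.16 (edgeR adjusted p = 0.0111), Klk13 by 0.76 ± 0.17 (edgeR adjusted p = 0.0168) and Klk5 by 0.49 ± 0.12 (edgeR adjusted p = 0.0226). Klk6 rose by 1.12 ± 0.21 (edgeR adjusted p = 0.00548). Markers of the granular and cornified layers moved with these genes, since 14 of 17 fell over the same interval, and their summed level was 33933 to 38881 CPM in E15.5 controls and 10985 to 15540 in E17.5 controls. The summed basal keratinocyte level was 7573 to 8046 CPM in E15.5 controls and 8114 to 8167 in E17.5 controls. Age cannot be told apart from any difference in sampling or preparation between the stages. The part of the granular and cornified shift in the result was not tested. The number of falling members was 3 when libraries were scaled by their totals alone, which moved the median over all genes by 0.19, and it was 1 without E15.5 control replicate 2 or without E17.5 control replicate 2. Without E15.5 control replicate 2, no member rose.

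In the knockout the same interval brought Klk5 down by 2.50 ± 0.13 on the log2 scale (edgeR adjusted p = 6.63e-07), Klk13 by 2.47 ± 0.29 (edgeR adjusted p = 0.000151), Klk11 by 1.58 ± 0.22 (edgeR adjusted p = 0.000535), Spink5 by 1.23 ± 0.23 (edgeR adjusted p = 0.00359) and Klk10 by 0.89 ± 0.22 (edgeR adjusted p = 0.0202). Klk6 rose by 4.69 ± 0.17 (edgeR adjusted p = 1.07e-07), at rank 21 of all genes tested. In all, 5 of 9 members fell and 1 rose, where 13.1% of all genes passed (6.19% upward and 6.91% downward). Klk7 (-0.46 ± 0.16, edgeR adjusted p = 0.0958) and Klk8 (-0.47 ± 0.16, edgeR adjusted p = 0.0921) missed the threshold. Both passed it without E17.5 knockout replicate 2 (adjusted p = 0.00914 and 0.0159), and the Klk10 call was lost without E15.5 knockout replicate 1, E15.5 knockout replicate 2 or E17.5 knockout replicate 1 (adjusted p = 0.0537, 0.0908 and 0.113). The 2 comparisons with age use different libraries from each other but share them with the comparisons by genotype.

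Along the chromosome, the gene that rose lies between the genes that fell. Klk6, at chr7:43824499-43832030, has Klk7 (chr7:43811294-43816359) on one side and Klk5 on the other, and their log2 fold changes at E17.5 were -0.996, 4.42 and -4.16 from left to right. Klk10 (chr7:43781035-43785410), which was not called, lies between Klk11 (chr7:43774604-43779263), which fell, and Klk9 (chr7:43791891-43796757), a kallikrein that fell by 1.39 ± 0.28 at E15.5 (edgeR adjusted p = 0.00182) and dropped by 2.34 ± 0.30 at E17.5 (edgeR adjusted p = 6.04e-05). Without E17.5 knockout replicate 2 the second value was -2.98. Klk4, the next kallikrein beyond Klk5 and the protease of tooth enamel, had 25 reads in E15.5 controls, 6 in E15.5 knockouts, 17 in E17.5 controls and 4 in E17.5 knockouts. It passed the test at E15.5 (log2 fold change -2.09 ± 0.69, edgeR adjusted p = 0.0278) and not at E17.5 (-1.94 ± 0.79, edgeR adjusted p = 0.0565), and the E15.5 call was lost without any 1 of the 4 E15.5 libraries (adjusted p from 0.0821 to 0.181), without either E17.5 knockout library and with DESeq2 (adjusted p = 0.126). Of 18 other kallikreins in all, 4 could be tested. At E15.5, Klk9 and Klk4 fell (list median -1.42), and at E17.5, Klk9 fell and Klk1b26 rose by 1.79 ± 0.34 (list median -0.20, edgeR adjusted p for Klk1b26 = 0.000901). Klk1b26, named after its values were seen, has near-identical copies among the Klk1b genes, so its counts are uncertain. Klk13 (chr7:43712567-43727534), whose decline was the largest, has the nearly silent Klk14 and Klk12 (chr7:43768897-43773585) as its neighbours. Outside the block, beyond Klk14, lie Ctu1, a tRNA-modifying enzyme gene, and then Siglece, a receptor gene of myeloid cells, both named after their values were seen. Ctu1 was not called (-0.39 ± 0.19 at E15.5, edgeR adjusted p = 0.112, and -0.32 ± 0.19 at E17.5, edgeR adjusted p = 0.180). Siglece was not called at E15.5 (0.29 ± 0.37, edgeR adjusted p = 0.561) and rose at E17.5 (1.44 ± 0.36, edgeR adjusted p = 0.00553).

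**Figure D5:**
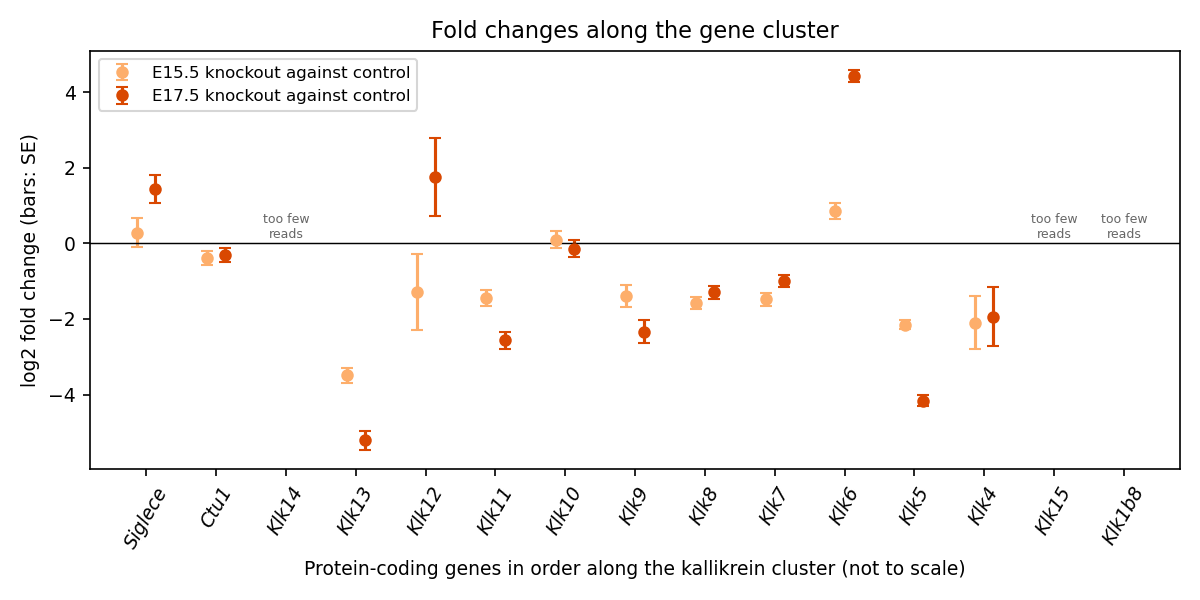
Log2 fold change of the knockout against control, with bars of 1 SE, for protein-coding genes in their order along the kallikrein cluster on chromosome 7, spaced evenly and not to scale. Klk6 stands at 4.42 at E17.5 between Klk7 at -0.996 and Klk5 at -4.16, and Klk10 near 0 stands between Klk11 and Klk9.

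The gene groups that act with the kallikreins were read from lists. Over all genes tested, 22.3% fell and 23.2% rose at E15.5, and 26.7% fell and 26.7% rose at E17.5. Of 18 other inhibitors of the Spink, Spint, serpin and related families, 9 could be tested, and 6 fell and 1 rose at each stage, with a median log2 fold change of -1.80 at E15.5 and -2.11 at E17.5. Spint1, which inhibits matriptase, fell by 1.19 ± 0.11 at E15.5 (edgeR adjusted p = 6.32e-06) and dropped by 2.11 ± 0.12 at E17.5 (edgeR adjusted p = 6.38e-08). Serpina12, known as vaspin and as an inhibitor of Klk7, fell by 5.01 ± 0.24 at E15.5 (edgeR adjusted p = 4.40e-08) and dropped by 5.82 ± 0.26 at E17.5 (edgeR adjusted p = 1.48e-08), and it was named after its values were seen. Its level was 319 and 336 CPM in E15.5 controls, 8.25 and 12 in E15.5 knockouts, 200 and 151 in E17.5 controls and 4.02 and 2.19 in E17.5 knockouts. Spink12, a small relative of Spink5, had the opposite pattern, with 0 and 0 reads in E15.5 controls, 98 and 154 in E15.5 knockouts, 0 and 2 in E17.5 controls and 44 and 39 in E17.5 knockouts. It was at least 79.6-fold higher in the knockout at E15.5, against a floor of 3 counts over the control group (edgeR adjusted p = 1.20e-05). At E17.5 the ratio was 44.1, with a 95% counting interval of 11.8 to 371 (edgeR adjusted p = 0.000132). Slpi, a secreted inhibitor of leukocyte proteases, had 24 reads in E15.5 knockouts and 0 in the controls, and 6 against 3 at E17.5, too few for the test. Spink6, an inhibitor of kallikreins in human skin, had 0 reads in all 8 libraries, and A2ml1 had 3 in all.

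Among 18 proteases that activate kallikreins or work beside them, 15 could be tested. At E15.5, 10 fell, where 22.3% of all genes did, and the other 5 were not called, with a median of -0.94. At E17.5, 8 fell and 3 rose, with a median of -1.27, where 26.7% of all genes fell and 26.7% rose. The number that rose was no more than that share. St14, which encodes matriptase, an activator of prokallikreins, fell by 0.94 ± 0.11 at E15.5 (edgeR adjusted p = 3.82e-05) and dropped by 2.19 ± 0.12 at E17.5 (edgeR adjusted p = 5.27e-08). Prss8, which encodes prostasin, fell by 1.59 ± 0.19 at E15.5 (edgeR adjusted p = 3.55e-05) and dropped by 1.27 ± 0.19 at E17.5 (edgeR adjusted p = 0.000162). The 3 that rose at E17.5 were the lysosomal cathepsin genes Ctsl (1.19 ± 0.11, edgeR adjusted p = 5.81e-06) and Ctsh (0.51 ± 0.11, edgeR adjusted p = 0.00285) and the urokinase gene Plau (0.55 ± 0.11, edgeR adjusted p = 0.00113), all named after their values were seen.

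Genes of the corneodesmosome proteins that kallikreins cut were read together with other desmosome genes. Of 11 genes, 9 fell, 1 rose and 1 was not called at E15.5, and 10 fell and 1 rose at E17.5, with medians of -2.00 and -2.69. Among all genes tested, 22.3% fell and 23.2% rose at E15.5, and 26.7% fell and 26.7% rose at E17.5. Cdsn, which encodes corneodesmosin, had 1065 and 1176 CPM in E15.5 controls, 319 and 372 in E15.5 knockouts, 721 and 456 in E17.5 controls and 117 and 180 in E17.5 knockouts. It fell by 1.70 ± 0.23 at E15.5 (edgeR adjusted p = 0.000111) and dropped by 1.98 ± 0.23 at E17.5 (edgeR adjusted p = 2.69e-05). Dsg1a, a desmoglein, fell by 3.80 ± 0.18 at E15.5 (edgeR adjusted p = 3.93e-08) and dropped by 5.25 ± 0.19 at E17.5 (edgeR adjusted p = 4.24e-09), and Dsc1, a desmocollin, fell by 2.17 ± 0.26 at E15.5 (edgeR adjusted p = 4.50e-05) and dropped by 3.60 ± 0.28 at E17.5 (edgeR adjusted p = 1.11e-06). The gene that rose at both stages was Dsc2, another desmocollin, named after its values were seen. Its level went from 7.10 and 6.38 CPM to 40.3 and 54.1 at E15.5 and from 5.76 and 6.42 to 41.1 and 41.0 at E17.5. Its log2 fold change was 2.81 ± 0.16 (edgeR adjusted p = 1.71e-07) and 2.75 ± 0.16 (edgeR adjusted p = 1.21e-07).

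F2rl1, the gene of the receptor PAR2, which kallikreins activate by cutting it, fell by 1.43 ± 0.29 at E15.5 (edgeR adjusted p = 0.00170) and dropped by 1.12 ± 0.28 at E17.5 (edgeR adjusted p = 0.00498). Its list of other substrates and receptors had 10 genes tested, of which 2 rose and 3 fell at E15.5 and 2 rose and 4 fell at E17.5, with medians of 0.27 and -0.11. Over all genes tested, 23.2% rose and 22.3% fell at E15.5, and 26.7% rose and 26.7% fell at E17.5. The counts of this list are near those shares and say little by themselves. Those that fell were F2rl1, Smpd1 and Il1a at E15.5 and F2rl1, Smpd1, Il1a and Camp at E17.5. The genes that rose were F2r and Cela1 at E15.5 and Cela1 and Il1b at E17.5, and apart from F2rl1 the members of this list were named after their values were seen. The E15.5 call for Cela1 (edgeR adjusted p = 0.0486) was lost when any library other than E15.5 knockout replicate 1 was left out (log2 fold change from 0.35 to 0.87). It was also lost with library totals, summed transcripts, only the groups compared, the replicate block, limma-voom and DESeq2 (adjusted p from 0.0529 to 0.0741). The E15.5 call for F2r (edgeR adjusted p = 0.0346) was lost without either E15.5 control or E15.5 knockout replicate 2 (log2 fold change from 0.15 to 0.39). Filaggrin, also on the list, is not analysed here.

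Markers of the granular and cornified layers fell at the same stages as the 6 members that fell. Some of these markers, Cdsn included, are also on the desmosome or protease lists above, so the lists are not independent. Over all genes tested, 22.3% fell at E15.5 and 26.7% at E17.5. All 17 granular and cornified genes tested fell at both stages, with medians of -2.34 and -3.79, and their summed level was 6722 to 7523 CPM in E15.5 knockouts and 817 to 1097 in E17.5 knockouts, against the control ranges given above. At E17.5, Klk7, Klk8, Klk11 and Spink5 had log2 fold changes between -0.996 and -2.57, closer to 0 than the median of that list, while Klk5 and Klk13 had values of -4.16 and -5.21, beyond its median and within its range, which reached -6.34. At E15.5 Klk13 (-3.49) was beyond the median, and Klk5 (-2.15) was closer to 0 than it. Of 10 periderm genes, 7 rose and 3 fell at each stage, where 23.2% of all genes rose at E15.5 and 26.7% at E17.5. The share of such shifts in the kallikrein values was not tested.

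Patterns most like those of Klk5, Klk7 and Spink5 were sought by Pearson's r of log2 CPM among 13566 genes whose mean log2 CPM was 1 or more, over the 8 libraries. The closest to Klk5 were Ap1m2, an epithelial clathrin adaptor gene (r = 0.998), Cds1 (r = 0.998) and the ephrin receptor gene Epha1 (r = 0.997). The closest to Klk7 were Prss8 (r = 0.991), the cornified envelope gene Lce1f (r = 0.989) and Spsb3 (r = 0.988). The closest to Spink5 were Lce1k (r = 0.992), Esyt3 (r = 0.992) and Glrx (r = 0.991). For Klk6 the same measure, run after its values were seen, gave Parp10 (r = 0.986), Ifitm1 (r = 0.981) and Gbp2 (r = 0.981). Their log2 fold changes at E17.5 were 1.01 ± 0.15, 1.71 ± 0.14 and 2.04 ± 0.20. Klk6 was high only in the E17.5 knockouts, so choosing genes by likeness to it fixed a rise there in advance. Those fold changes are therefore no separate test. The 8 libraries share their 4 group means, so the values of r largely describe differences between groups. Counts of Lce genes can be split among near-identical copies.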

How the data were processed

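RNA was sequenced in 8 libraries of mouse embryonic epidermis. The values are whole-number counts per RefSeq transcript, deposited by the authors. Per the submitters' processing notes and design text, reads were aligned to mm10 with TopHat2 and counted with HOMER, and edgeR was used for differential genes. The labels state neither the HOMER version, nor the strand setting, nor how reads with several matches were treated. Of 30521 transcripts, 29908 were named from the RefSeq gene table and 182 more from GENCODE M21. The other 431, with 2.08% of counts, entered neither the library sizes nor the tests. Each gene was represented by its transcript with the largest total. Counts on its other transcripts were also left out of the library sizes and tests, except in the alternative with summed transcripts. A total of 8 columns in joined tables of the stages were not used.

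Counts were tested with edgeR 4.0.16 in R 4.3.3. filterByExpr kept 16342 genes. Library sizes were scaled by TMM (the trimmed mean of M values), and 1 quasi-likelihood fit held all 4 groups. P-values were adjusted by Benjamini-Hochberg over the 16342 genes, and a gene was called at 0.05. Standard errors were derived from the log2 fold change and its F statistic. Levels are TMM-scaled CPM. On simulated counts for the E17.5 comparison (16061 genes, 200 changed), 84% of 2-fold and 99% of 4-fold changes were recovered, with 10 false calls among 193. In the data, 53.5% of genes passed at E17.5. Recovery, false calls and TMM scaling with so large a share of changes were not tested. The alternatives were other scalings, filters, summed transcripts, a fit of only the groups compared, a replicate block, limma-voom (limma 3.58.1), DESeq2 1.42.0 and leaving out each library.

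The members, the gene lists and the rule for naming genes were chosen with earlier results of these data known. The rule named the 10 members, Klk9, Klk4, Spink6, Spink12, Spint1, Slpi, A2ml1, St14, Prss8, Cdsn, Dsg1a, Dsc1 and F2rl1, and the 3 genes with the pattern closest to each of Klk5, Klk7 and Spink5. Some results are not reported here.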

Additional observations from a re-analysis of the deposited data

Results flagged for a closer look

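The effect of the knockout differed between E15.5 and E17.5 for 3 members by the test of the interaction itself in edgeR. For Klk5 the difference of the log2 fold changes was -2.01 ± 0.18 (SE, edgeR adjusted p = 0.000148), with a fall at both stages in both knockout libraries. For Klk6 it was 3.57 ± 0.28 (edgeR adjusted p = 0.000115), with a rise at both stages in both knockout libraries. For Klk13 it was -1.71 ± 0.35 (edgeR adjusted p = 0.0177), and the E17.5 level behind it rests on 31 reads. The groups held 2 libraries each, so no library could be checked for standing apart from the others of its group.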

How the results depend on the processing

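Over the alternatives, 700 member values kept their direction and their side of the threshold, 28 lost the call, 16 gained it and 5 changed sign. In both knockout comparisons, the fall of Klk5, Klk7, Klk8, Klk11, Klk13 and Spink5 was called in all 17 alternatives. Klk6 was called in all 17 at E17.5 and in 13 at E15.5.

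The values that changed sign were uncalled. Leaving out 1 library at a time, Klk10 ranged from -0.10 (without E15.5 control replicate 1) to 0.34 at E15.5 and from -0.62 to 0.19 at E17.5, and its difference between stages from -0.72 to 0.088. The difference ranged from -0.70 to 0.035 for Spink5 and from -0.0097 to 0.50 for Klk8. The upper ends for Klk10 at E17.5, for both differences of Klk10 and Spink5, and for Klk8 came without E17.5 knockout replicate 1, and the lower end for Klk8 without E17.5 knockout replicate 2.

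Counts of members moved as follows. The 1 that rose at E15.5 became 0 in a fit of only the groups compared and with limma-voom. The 5 that fell with age in controls became 3 under library totals and 2 with a replicate block within stage, and the 1 that rose became 0 in a fit of only the groups compared. Leaving out 1 library at a time gave 0 to 1 rising at E15.5, 6 to 7 falling and 1 to 2 rising at E17.5, 1 to 2 falling in the difference between stages, 1 to 6 falling and 0 to 1 rising with age in controls, and 4 to 7 falling with age in knockouts. A group left with 1 library was assumed to vary like the others. The cause of these moves was not tested.

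Replicates of the same number deviated together with r = 0.13 at E15.5 and -0.13 at E17.5 over 13574 genes, so the numbers do not show pairing. With the replicate block, the genes that fell and rose with age in controls numbered 629 and 230, against 1259 and 515, those with age in knockouts 795 and 740, against 1130 and 1012, and those in the difference between stages 482 and 524, against 403 and 308. Crossing the numbers at E17.5, an alternative chosen after seeing the data, left 512 and 177 with age in controls and 661 and 446 in knockouts, and 1 member falling with age in controls. With 1 library left out, the genes that fell and rose numbered at least 490 and 176 with age in controls, 709 and 451 with age in knockouts, and 255 and 122 in the difference between stages. DESeq2 gave 497 and 509 for that difference. Library totals alone moved the median over all genes to -0.235 at E17.5. Depth limits Klk12, Klk4 and Klk14.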

Other observations

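Cells other than keratinocytes were read from lists of markers. Over all genes tested, 23.2% rose at E15.5 and 26.7% at E17.5. Of 10 endothelial genes, 10 were higher in the knockout at each stage, with median log2 fold changes of 0.63 and 0.78. Of 10 myeloid genes tested, 10 rose at E15.5 and 9 at E17.5, with medians of 1.20 and 1.97. Of 9 erythroid genes, 8 and 6 rose, with medians of 2.74 and 3.06. Of 10 skeletal muscle genes, 8 and 10 rose, with medians of 0.61 and 1.21, and of 8 melanocyte genes 7 and 3 rose, with medians of 0.77 and 0.33. No marker on these 5 lists was at 0 in all libraries. Skeletal muscle genes summed to 9706 to 12299 CPM in E15.5 controls and 11319 to 11576 in E17.5 controls. Both ranges were above the basal keratinocyte sums of the same groups, but sums over different genes do not compare amounts of cells. In knockouts the muscle sums were 17269 to 17504 at E15.5 and 23563 to 30122 at E17.5. Erythroid genes summed to 4360 to 6214 CPM in E15.5 controls, 26455 to 44416 in E15.5 knockouts, 1592 to 1964 in E17.5 controls and 20358 to 23922 in E17.5 knockouts.

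Within the epidermis, 11 of 12 basal keratinocyte genes fell at each stage, with medians of -2.24 and -3.09, where 22.3% and 26.7% of all genes fell. Of 8 genes shared by many epithelia, 5 fell and 3 rose at each stage, with medians of -2.04 and -2.48. Some keratin genes are on both this list and the periderm list, so the lists are not independent. The 10 periderm genes, of the outermost embryonic layer, had medians of 2.61 and 2.73, and their summed level was 1414 to 1567 CPM in E15.5 controls, 3031 to 3062 in E15.5 knockouts, 1316 to 1437 in E17.5 controls and 1112 to 1456 in E17.5 knockouts. The 2 E17.5 groups overlap in that sum, although 7 of the 10 genes rose by the test.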
